A study of Mus musculus with 18 samples.

Results

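The 7 stefin and cystatin genes described here were taken by name from an RNA sequencing table of 23418 mouse genes: the stefin A genes Stfa1, Stfa2, Stfa2l1 and Stfa3, the stefin B gene Cstb, and the cystatin genes Cst3 and Cst7. Their levels were followed in leukemia cells of C57BL/6 mouse origin that carry MLL-AF9, MLL-AF6 or MLL-AF1p, which are fusions of the MLL histone methyltransferase to different partner proteins. Each of the 3 transformed cell types was kept in 6 µM MI-2-2, a compound that blocks the binding of menin to MLL, or in the solvent DMSO over 6 days, with DMSO at 0.25% in both arms, and compound or DMSO was renewed on day 3. There were 3 libraries of polyA RNA in each of the 6 groups, MLL-AF9 with MI-2-2 and with DMSO, MLL-AF6 with MI-2-2 and with DMSO, and MLL-AF1p with MI-2-2 and with DMSO, 18 libraries in all. The labels give no further allele, clone or animal for these cells and do not say whether the libraries of a group came from separate cultures, so the p-values measure the spread between libraries, which may be technical.

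Cystatins are tight-binding, reversible inhibitors of papain-like cysteine proteases, of which the lysosomal cathepsins are the best known. Stefins, the first type of the family, have no signal peptide and act mainly inside the cell, whereas the second type, to which the products of Cst3 and Cst7 belong, enters the secretory pathway. In the mouse the stefin A gene has been duplicated into a cluster on chromosome 16, and several of its copies are known as abundant transcripts of neutrophils and their precursors. Menin tethers MLL fusion proteins to their target genes, and MI-2-2 was made to break that contact.

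Some copies of the stefin A cluster are so alike that the counting of reads matters for their separate values below. The first 90 coding bases, from the GENCODE M21 annotation of GRCm38, are shown for the pairs on which the results turn. In the first 3 lines capitals mark the bases at which Stfa2l1 and Stfa3 differ from Stfa2, and in the last 2 lines those at which BC100530, another gene of the cluster, differs from Stfa1.
Stfa2: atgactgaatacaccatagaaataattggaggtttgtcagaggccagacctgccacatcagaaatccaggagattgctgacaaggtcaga
Stfa2l1: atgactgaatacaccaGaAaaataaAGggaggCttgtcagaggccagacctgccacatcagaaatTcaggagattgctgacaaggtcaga
Stfa3: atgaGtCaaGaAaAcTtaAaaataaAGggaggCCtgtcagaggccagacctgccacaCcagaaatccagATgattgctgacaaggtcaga
Stfa1: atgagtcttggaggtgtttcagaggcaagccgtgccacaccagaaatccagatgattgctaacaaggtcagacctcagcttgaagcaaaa
BC100530: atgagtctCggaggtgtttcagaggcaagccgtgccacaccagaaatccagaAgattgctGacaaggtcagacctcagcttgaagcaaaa

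Over these bases Stfa2l1 differed from Stfa2 at 6 positions, Stfa3 differed from Stfa2 at 14 positions, and BC100530 differed from Stfa1 at 3 positions. Over the whole coding sequence of 309 bases, Stfa2l1 was 96.4% and Stfa3 80.9% identical to Stfa2. Of the 422 windows of 50 bases in the annotated Stfa2 transcript, 67 (15.9%) occurred letter for letter in the transcript of another gene, among them Stfa2l1. The same held for 91 of 370 windows of Stfa2l1 (24.6%) and for 118 of 465 windows of Stfa1 (25.4%), which Stfa1 shared with BC100530 and BC117090. None of the 363 windows of Stfa3 and none of those of Cst3, Cstb and Cst7 occurred in another gene. Reads can therefore be exchanged between Stfa2 and Stfa2l1, and between Stfa1 and BC100530, and their separate levels are uncertain to that extent, while Stfa3 shared no stretch of that length. The read length behind the table is not certain, since the labels give both a single-end run of 50 cycles and a paired-end run of 100.

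The sequences around the starts of the 4 Stfa genes are alike as well, and they are shown because these genes moved together. Each runs from 250 bases before to 50 bases after the start in RefSeq (GRCm38.p6), on the strand of the gene, with capitals at matches to TTNCNNAA, the core recognised by C/EBP factors of the granulocyte lineage, and to GAGGAA, the core recognised by the myeloid factor PU.1, both searched on both strands.
Stfa1, chr16:36276898-36277197, plus strand: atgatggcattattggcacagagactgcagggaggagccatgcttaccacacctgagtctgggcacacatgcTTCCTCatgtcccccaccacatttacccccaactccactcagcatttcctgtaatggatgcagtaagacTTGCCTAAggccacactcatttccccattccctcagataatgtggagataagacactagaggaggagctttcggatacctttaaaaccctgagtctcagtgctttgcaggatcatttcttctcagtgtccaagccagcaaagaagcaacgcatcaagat
Stfa2, chr16:36408314-36408613, minus strand: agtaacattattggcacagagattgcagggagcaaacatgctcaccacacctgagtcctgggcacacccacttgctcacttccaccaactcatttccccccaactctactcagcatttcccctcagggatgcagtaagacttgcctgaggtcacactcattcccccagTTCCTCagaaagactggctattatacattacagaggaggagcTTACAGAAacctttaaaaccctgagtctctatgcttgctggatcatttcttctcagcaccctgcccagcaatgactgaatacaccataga
Stfa2l1, chr16:36156561-36156860, plus strand: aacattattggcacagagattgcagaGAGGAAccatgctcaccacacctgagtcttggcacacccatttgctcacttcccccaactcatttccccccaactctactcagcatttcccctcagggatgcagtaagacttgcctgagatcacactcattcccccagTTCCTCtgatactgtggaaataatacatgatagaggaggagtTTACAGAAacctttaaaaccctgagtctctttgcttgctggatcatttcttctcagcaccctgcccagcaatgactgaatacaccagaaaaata
Stfa3, chr16:36455343-36455642, minus strand: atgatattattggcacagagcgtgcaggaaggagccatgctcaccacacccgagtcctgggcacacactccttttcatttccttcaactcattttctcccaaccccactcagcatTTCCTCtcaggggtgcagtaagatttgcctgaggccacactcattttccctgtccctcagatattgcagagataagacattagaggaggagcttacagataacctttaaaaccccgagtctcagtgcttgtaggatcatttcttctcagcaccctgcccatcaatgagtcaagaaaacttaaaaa

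The windows of Stfa2 and Stfa2l1 were 90.5% identical, and every other pair among these 4 genes lay between 78.2% and 80.9%. The windows of Cst3 and Cst7 were 38.2% to 47.0% identical to them, and Cstb was not among the promoter sequences, so 6 of the 7 members were compared. TTNCNNAA occurred once in Stfa1, Stfa2 and Stfa2l1, not in Stfa3 or Cst3, and at 2 places in Cst7. GAGGAA occurred once in Stfa1, Stfa2, Stfa3 and Cst3, at 2 places in Stfa2l1, and not in Cst7. Of 32851 mouse promoter windows of this length, 40.7% held TTNCNNAA and 28.3% held GAGGAA, and a match is a description of letters, not a measured binding site.

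All 7 members were expressed. Levels are RPKM, reads per kilobase of gene and per 1 M (1000000) counted reads, as the authors gave them, and the libraries held 21.18 to 56.3 M counted reads, with those of MLL-AF1p the deepest (50.7 to 52.88 M with MI-2-2 and 48.88 to 56.3 M with DMSO). Differences are of mean log2(RPKM + 0.5), tested with limma over the 11238 genes that reached an RPKM of 1 in at least 3 of the 18 libraries, and "rose" or "fell" below means that the p adjusted over all these genes was under 0.05. All 7 members passed that filter, and all 7 would have passed it on the DMSO libraries alone. With MI-2-2, 5 members rose in each of the 3 cell types, namely the 4 Stfa genes and Cstb, whereas Cst3 fell in MLL-AF9 cells and Cst7 in MLL-AF9 and MLL-AF6 cells.

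In MLL-AF9 cells 5 members rose and 2 fell, where 28.5% of all genes tested rose and 27.9% fell. In MLL-AF6 cells 5 rose and 1 fell, beside 18% of all genes that rose and 38.9% that fell. In MLL-AF1p cells 5 rose and 0 fell, beside 19.1% and 26.3% of all genes. The median change of the members on the log2 scale was 2.95, 2.88 and 2.75 in cells with MLL-AF9, MLL-AF6 and MLL-AF1p, beside medians over all genes of -0.001, -0.159 and -0.058. With the libraries centred on their medians, 41.9% in place of 31.6% of the called genes of MLL-AF6 cells were higher, and no member's call changed in any of the 3 cell types.

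All 3 MI-2-2 libraries lay above all 3 DMSO libraries for 5 members in MLL-AF9 cells, for 5 in MLL-AF6 cells and for 6 in MLL-AF1p cells, the sixth being Cst3. Among all genes tested, 29.0%, 19.4% and 28.9% had that order in these 3 cell types. All 3 lay below for 2 members in MLL-AF9 cells, for 1 in MLL-AF6 cells and for 0 in MLL-AF1p cells, beside 28.2%, 41.5% and 40.3% of all genes.

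**Figure D1:**
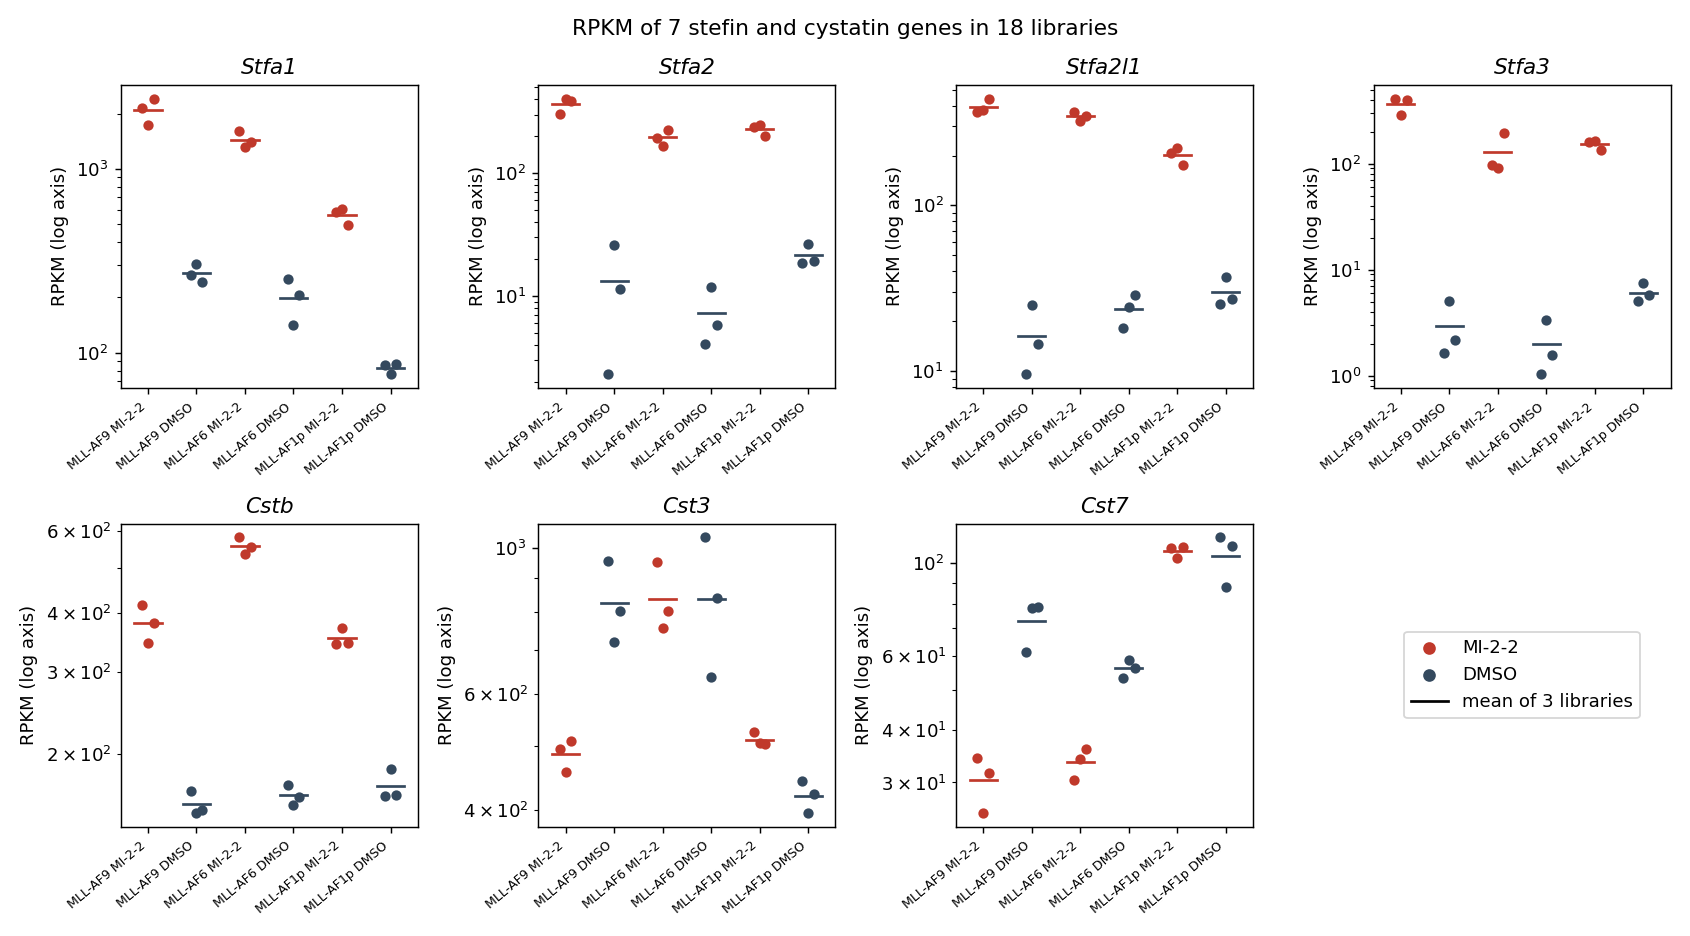
RPKM of the 7 genes on log axes in the 18 libraries, with MI-2-2 left of DMSO for each construct, points for libraries and bars for the mean of 3. The 4 Stfa genes and Cstb lie higher in every MI-2-2 library than in any DMSO library of the same construct, whereas Cst7 lies lower in MLL-AF9 and MLL-AF6 cells.

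Stfa1 was the most abundant stefin in MLL-AF9 and MLL-AF6 cells, at 2158, 1744 and 2410 RPKM in MLL-AF9 cells with MI-2-2, against 266, 303 and 242 RPKM with DMSO. In MLL-AF6 cells it stood at 1615, 1308 and 1399 RPKM with MI-2-2, against 251, 141 and 206 RPKM with DMSO. In MLL-AF1p cells it stood at 583, 605 and 498 RPKM with MI-2-2, against 85.8, 76.6 and 86.5 RPKM with DMSO. The groups did not overlap in any cell type, and the lowest level with MI-2-2, in MLL-AF1p cells, was above the highest with DMSO in MLL-AF9 cells. The rise was 2.95 ± 0.17 on the log2 scale (SE, n = 3 libraries a group) in MLL-AF9 cells (adjusted p = 1.15e-09), 2.88 ± 0.17 in MLL-AF6 cells (1.35e-09) and 2.75 ± 0.17 in MLL-AF1p cells (5.13e-09), about 7.73-fold, 7.38-fold and 6.73-fold. The rise did not differ between the cell types past the threshold: the effect in MLL-AF1p minus that in MLL-AF9 cells was -0.20 with a 95% interval of -0.71 to 0.31, and that in MLL-AF6 minus MLL-AF9 cells was -0.07 with an interval of -0.58 to 0.44.

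Stfa2 was far lower than Stfa1 without the inhibitor and varied there. In MLL-AF9 cells it stood at 303, 403 and 383 RPKM with MI-2-2, against 2.33, 26.3 and 11.5 RPKM with DMSO. In MLL-AF6 cells the values were 193, 167 and 226 RPKM with MI-2-2, against 4.11, 11.9 and 5.80 RPKM with DMSO. In MLL-AF1p cells they were 238, 248 and 202 RPKM with MI-2-2, against 18.7, 26.6 and 19.4 RPKM with DMSO. The lowest DMSO value, in library 1 of MLL-AF9, rested on 22 reads, and library 2 was the highest DMSO library of each cell type. The rise was 5.22 ± 0.55 (SE) in MLL-AF9 cells (adjusted p = 9.27e-07), 4.77 ± 0.55 in MLL-AF6 cells (2.85e-06) and 3.39 ± 0.55 in MLL-AF1p cells (0.000131). Its size in MLL-AF9 cells depended on the DMSO libraries, since it was 4.33 without library 1 and 5.96 without library 2.

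Stfa2l1, the close copy of Stfa2, stood at 366, 377 and 441 RPKM in MLL-AF9 cells with MI-2-2, against 9.61, 25.1 and 14.5 RPKM with DMSO. In MLL-AF6 cells it stood at 365, 323 and 348 RPKM with MI-2-2, against 18.2, 24.5 and 28.9 RPKM with DMSO. In MLL-AF1p cells it stood at 208, 221 and 176 RPKM with MI-2-2, against 25.4, 36.8 and 27.3 RPKM with DMSO. The rise became smaller in that order of cell types, at 4.65 ± 0.25 (SE; adjusted p = 4.89e-10), 3.85 ± 0.25 (4.09e-09) and 2.75 ± 0.25 (4.03e-07). Among the MI-2-2 groups MLL-AF1p was lowest, and among the DMSO groups its mean of 29.8 RPKM was the highest, although the DMSO groups overlapped with their neighbours in that order. Because Stfa2 and Stfa2l1 can exchange reads, their reads were also added up. The sum was 319 ± 33.6 reads per 1 M reads (SD, n = 3) with MI-2-2 against 12.5 ± 8.45 with DMSO in MLL-AF9 cells, 227 ± 18.9 against 13 ± 3.24 in MLL-AF6 cells, and 182 ± 20.1 against 21.6 ± 4.41 in MLL-AF1p cells. The ratios of the means were 25.5, 17.4 and 8.41, so the order of the cell types was the same for the sum as for either gene.

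Stfa3 had the largest rise of the 7 members in each cell type. It stood at 410, 286 and 399 RPKM in MLL-AF9 cells with MI-2-2, against 1.63, 5.05 and 2.16 RPKM with DMSO, from 15 to 46 reads in each of those DMSO libraries. In MLL-AF6 cells it stood at 96.3, 91.1 and 196 RPKM with MI-2-2, against 1.04, 3.32 and 1.55 RPKM with DMSO. In MLL-AF1p cells it stood at 160, 163 and 134 RPKM with MI-2-2, against 5.01, 7.42 and 5.72 RPKM with DMSO. Low in every DMSO library, at 1.04 to 7.42 RPKM, the gene reached levels of the order of Stfa2 with the inhibitor, and library 3 of MLL-AF6 with MI-2-2 was well above the other libraries of its group. The rise was 6.84 ± 0.37 (SE; adjusted p = 4.89e-10) in MLL-AF9 cells, where it ranked 5 among the 11238 genes, 5.71 ± 0.37 (3.81e-09, rank 13) in MLL-AF6 cells and 4.56 ± 0.37 (1.13e-07, rank 15) in MLL-AF1p cells. The gene shared no exact stretch of 50 bases with another annotated transcript. Exchange of reads through shorter or inexact matches was not tested.

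As a share of all counted reads, the 4 Stfa members made up 0.136 ± 0.0173% with MI-2-2 against 0.0128 ± 0.00207% with DMSO in MLL-AF9 cells (SD, n = 3). The shares were 0.0887 ± 0.0083% against 0.00978 ± 0.002% in MLL-AF6 cells and 0.0482 ± 0.00503% against 0.00591 ± 0.000267% in MLL-AF1p cells. Among the MI-2-2 groups, MLL-AF9 cells thus held the largest share of reads of these 4 genes, and MLL-AF1p cells the smallest. Over the 10 stefin A genes in the table, the shares with MI-2-2 were 0.239 ± 0.0228%, 0.164 ± 0.00848% and 0.113 ± 0.0119% in cells with MLL-AF9, MLL-AF6 and MLL-AF1p. With DMSO they were 0.0252 ± 0.0077%, 0.0188 ± 0.00108% and 0.0187 ± 0.000675%, and there MLL-AF6 and MLL-AF1p overlapped.

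The other copies of the cluster rose too. Of 10 further stefin A names, 6 were in the table and 5 passed the filter, BC100530, BC117090, Gm5483, 2010005H15Rik and Gm5416, of which BC117090 passed only through the MI-2-2 libraries. All 5 rose in each cell type, where 28.5%, 18% and 19.1% of all genes tested rose in cells with MLL-AF9, MLL-AF6 and MLL-AF1p. Their median changes were 3.23, 2.86 and 2.43 on the log2 scale in that order, or 3.22, 2.99 and 2.17 without BC117090. BC100530 had the second highest mean RPKM of the stefin A genes with MI-2-2 in MLL-AF9 and MLL-AF6 cells. It stood at 1160, 1293 and 1296 RPKM with MI-2-2 in MLL-AF9 cells, against 94.7, 273 and 169 RPKM with DMSO. Gm5483, which RefSeq now calls Cstdc4, stood at 882, 816 and 915 RPKM with MI-2-2 in MLL-AF9 cells, against 58.2, 143 and 93.8 RPKM with DMSO. For both genes, as for Stfa2, Stfa2l1 and Stfa3, the highest DMSO library of MLL-AF9 was library 2.

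The gene 2010005H15Rik, now Csta2 in RefSeq, stood out by cell type. It stood at 225, 96.5 and 187 RPKM with MI-2-2, against 1.94, 3.84 and 2.78 RPKM with DMSO, in MLL-AF9 cells, and at 22.3, 24.4 and 19.7 RPKM against 5.57, 5.97 and 5.26 RPKM in MLL-AF1p cells, where it was also low with the inhibitor. Its changes were 5.62 ± 0.32 (SE; adjusted p = 1.04e-09) in MLL-AF9 cells, 3.17 ± 0.32 (7.23e-07) in MLL-AF6 cells and 1.89 ± 0.32 (0.00021) in MLL-AF1p cells. In MLL-AF6 cells 2010005H15Rik stood at 76.5, 55.7 and 152 RPKM with MI-2-2, against 8.62 to 9.80 RPKM with DMSO. This gene and Gm5483 share 130 windows of 50 bases, so the split between them is uncertain. For their summed reads, the ratios of the means, MI-2-2 over DMSO, were 10.7, 7.27 and 3.78 in cells with MLL-AF9, MLL-AF6 and MLL-AF1p. The row named Csta was near 0, with a highest level of 0.0285 RPKM.

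**Figure D2:**
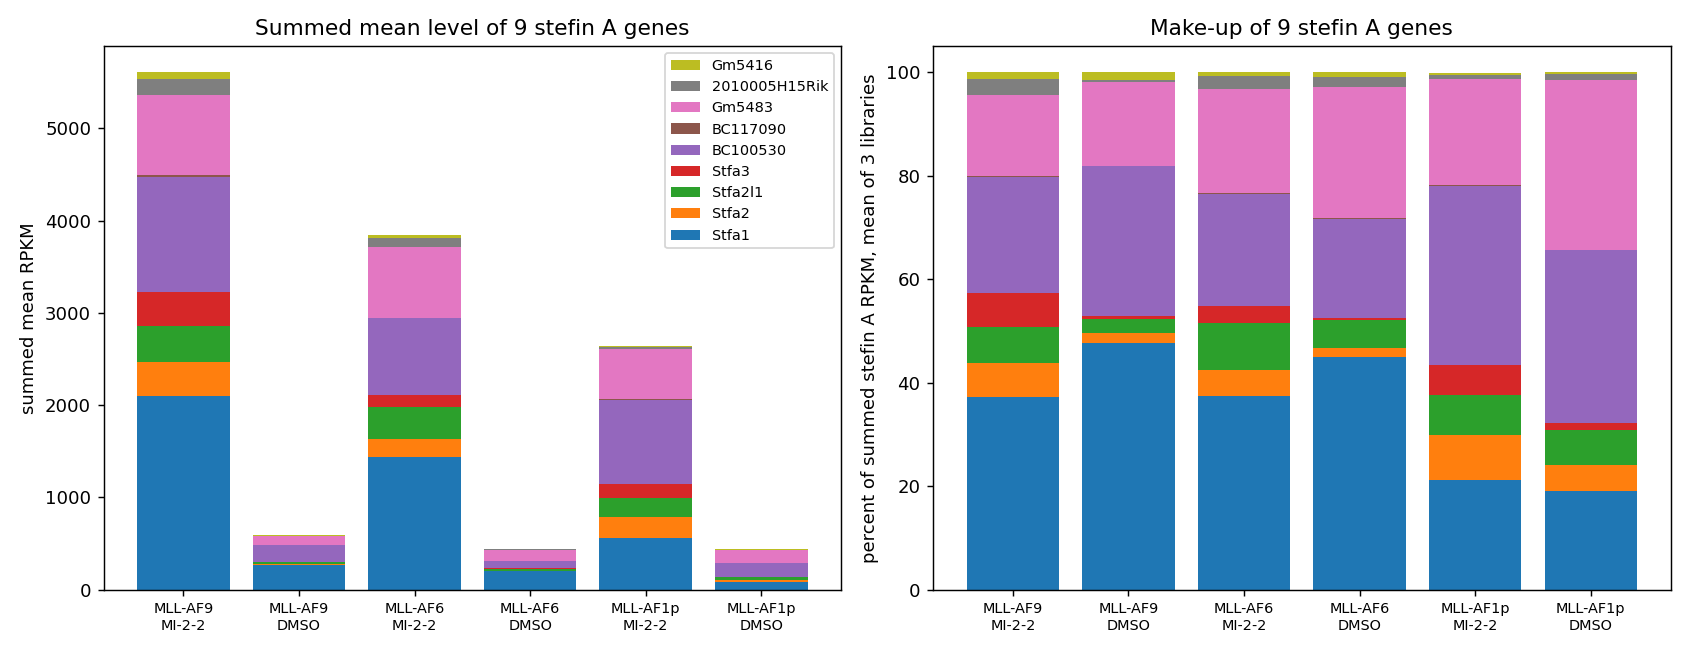
Left, mean RPKM of 9 stefin A genes stacked for each of the 6 groups; right, the percent of the summed stefin A RPKM in each gene, as the mean of 3 libraries. With MI-2-2 the stacks are tallest in MLL-AF9 cells, and Stfa1 takes 37.3% of the sum there but 21.3% in MLL-AF1p cells.

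The make-up of the cluster is given as a description, without a test. Stfa1 took 37.3 ± 2.64% of the summed stefin A RPKM with MI-2-2 and 47.7 ± 11.3% with DMSO in MLL-AF9 cells (SD, n = 3), and 37.5 ± 2.81% and 45.0 ± 11.2% in MLL-AF6 cells. In MLL-AF1p cells it took 21.3 ± 0.469% with MI-2-2 and 19.1 ± 1.93% with DMSO, and there BC100530 was the leading gene with MI-2-2, at 34.7 ± 0.151%. With DMSO it took 33.5 ± 2.13% in those cells, beside 32.7 ± 1.83% for Gm5483, and the ranges of these genes overlapped. Stfa3 took 6.48 ± 0.844% with MI-2-2 and 0.468 ± 0.149% with DMSO in MLL-AF9 cells, 3.3 ± 1.44% and 0.457 ± 0.304% in MLL-AF6 cells, and 5.78 ± 0.177% and 1.38 ± 0.23% in MLL-AF1p cells. Since Stfa1 and BC100530 can exchange reads, the sum of Stfa1, BC100530 and BC117090 was followed too. It was 1450 ± 146 reads per 1 M reads with MI-2-2 against 193 ± 49.5 with DMSO in MLL-AF9 cells, 978 ± 71.6 against 121 ± 17.9 in MLL-AF6 cells, and 645 ± 67.9 against 99.8 ± 3.78 in MLL-AF1p cells, ratios of 7.48, 8.05 and 6.46.

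Cstb encodes stefin B, or cystatin B, a widely expressed inhibitor of cathepsins whose loss causes a progressive myoclonus epilepsy in humans. It stood at 416, 346 and 380 RPKM with MI-2-2, against 167, 150 and 152 RPKM with DMSO, in MLL-AF9 cells. In MLL-AF6 cells it stood at 580, 535 and 554 RPKM with MI-2-2, against 172, 156 and 162 RPKM with DMSO, and in MLL-AF1p cells at 343, 371 and 346 RPKM against 163, 186 and 164 RPKM. The MI-2-2 libraries were above the DMSO libraries in each cell type, MLL-AF9 and MLL-AF1p overlapped with MI-2-2 and MLL-AF6 was above both, while under DMSO the 3 cell types overlapped. The rise was smaller than that of the Stfa genes but precise, at 1.28 ± 0.075 (SE; adjusted p = 1.32e-09), 1.77 ± 0.075 (2.28e-11) and 1.05 ± 0.075 (2.85e-08) in cells with MLL-AF9, MLL-AF6 and MLL-AF1p, or 2.43-fold, 3.4-fold and 2.07-fold.

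Cst3 encodes cystatin C, a secreted inhibitor made by most tissues and abundant in macrophages and dendritic cells. It stood at 496, 457 and 509 RPKM with MI-2-2, against 956, 721 and 803 RPKM with DMSO, in MLL-AF9 cells, where it fell by 0.75 on the log2 scale (SE 0.14; adjusted p = 0.000296). In MLL-AF6 cells it stood at 954, 758 and 802 RPKM with MI-2-2, against 1039, 638 and 840 RPKM with DMSO, and the groups overlapped. In MLL-AF1p cells it stood at 525, 505 and 505 RPKM with MI-2-2, against 442, 396 and 423 RPKM with DMSO, so that all 3 treated libraries were above all 3 controls. The changes there did not pass the test, at 0.02 with a 95% interval of -0.28 to 0.32 in MLL-AF6 cells (adjusted p = 0.918) and 0.28 with an interval of -0.01 to 0.58 in MLL-AF1p cells (adjusted p = 0.111). The change in MLL-AF1p cells passed when only the MLL-AF1p libraries were fitted (adjusted p = 0.0022).

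Cst7 encodes cystatin F, an inhibitor of white blood cells that is directed to lysosome-like compartments and limits cathepsin C. It stood at 34.3, 25.4 and 31.7 RPKM with MI-2-2, against 61.6, 78.1 and 78.7 RPKM with DMSO, in MLL-AF9 cells. In MLL-AF6 cells it stood at 30.5, 34.2 and 36.1 RPKM with MI-2-2, against 53.3, 58.9 and 56.4 RPKM with DMSO, and in MLL-AF1p cells at 109, 103 and 109 RPKM against 115, 87.6 and 110 RPKM. The MI-2-2 libraries were thus all below the controls in MLL-AF9 and MLL-AF6 cells, and within the range of the controls in MLL-AF1p cells. It fell by 1.25 ± 0.12 (SE; adjusted p = 4.64e-07) in MLL-AF9 cells and by 0.74 ± 0.12 (0.000115) in MLL-AF6 cells, and changed by 0.05 with a 95% interval of -0.22 to 0.31 in MLL-AF1p cells (adjusted p = 0.792).

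**Figure D3:**
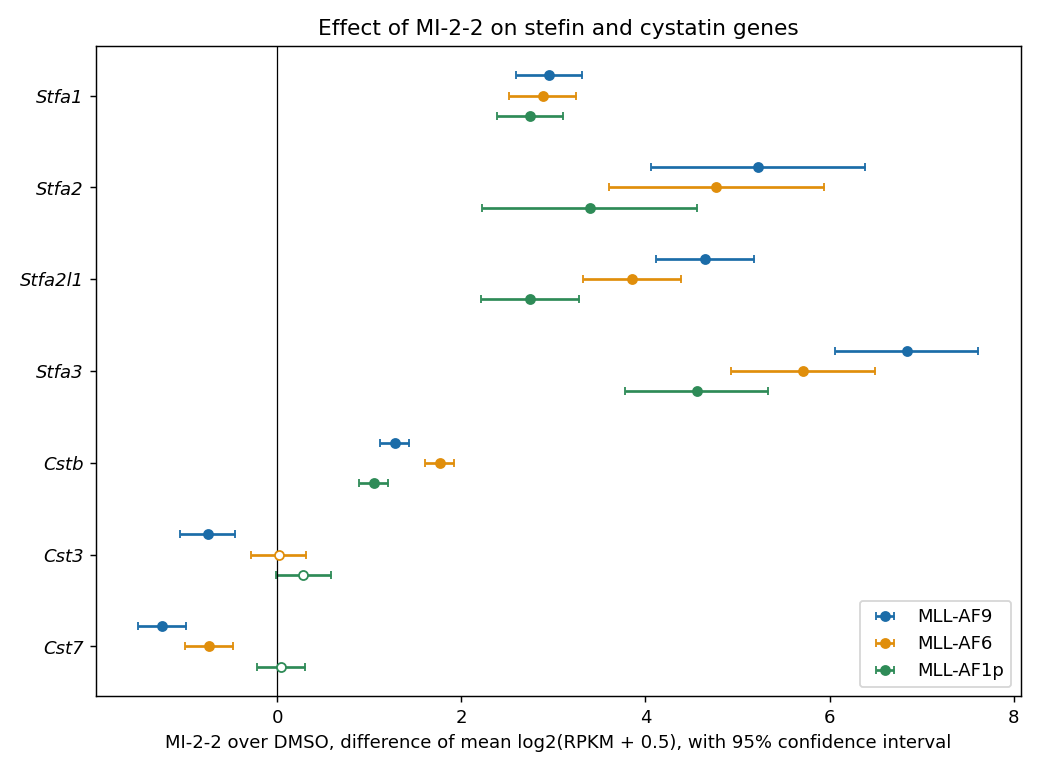
Difference of mean log2(RPKM + 0.5), MI-2-2 over DMSO, for each gene and construct, with 95% confidence intervals; open points did not pass an adjusted p of 0.05. The 4 Stfa genes and Cstb lie right of 0 in all 3 cell types, and Cst3 and Cst7 lie left of 0 in MLL-AF9 cells.

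Whether the response differed with the fusion partner was tested as the difference of the effects, which share libraries, so the 3 differences are given side by side. For MLL-AF6 minus MLL-AF9 cells, 3 members were higher and 0 lower, beside 9.02% and 24.0% of all genes: Cst3 with 0.77 ± 0.20 (SE; adjusted p = 0.00819), Cstb with 0.49 ± 0.11 (0.00274) and Cst7 with 0.51 ± 0.17 (0.0341). The Cst7 difference was lost without any 1 of 7 of the 12 libraries involved, namely replicate 2 of MLL-AF9 with MI-2-2, replicates 2 and 3 of MLL-AF9 with DMSO, replicates 2 and 3 of MLL-AF6 with MI-2-2 and replicates 1 and 3 of MLL-AF6 with DMSO, with adjusted p of up to 0.0891. It was also lost when low genes were kept in the fit (adjusted p = 0.0513) and with only these cell types fitted (0.0558). Stfa2l1 at -0.80 and Stfa3 at -1.13 did not pass (adjusted p = 0.096 and 0.108), and both passed without replicate 2 of MLL-AF9 with DMSO (adjusted p = 0.00508 and 0.0224); Stfa3 also passed without replicate 3 of MLL-AF6 with MI-2-2 (0.0389).

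For MLL-AF1p minus MLL-AF9 cells, 2 members were higher and 2 lower, beside 13.6% and 21.4% of all genes. Cst7 was higher by 1.29 ± 0.17 (SE; adjusted p = 6.19e-05) and Cst3 by 1.04 ± 0.20 (0.00106), while Stfa3 was lower at -2.28 ± 0.52 (0.00345) and Stfa2l1 at -1.90 ± 0.35 (0.000827). These 4 calls held without each library in turn. Without replicate 3 of every group, 9 of the 10 called differences between constructs were lost, among them here Stfa3 (adjusted p = 0.101), Stfa2l1 (0.0673) and Cst3 (0.0638), while the difference of Cst7 kept its call. Stfa2 at -1.83 did not pass (adjusted p = 0.0787) but did without replicate 2 of MLL-AF9 with DMSO (adjusted p = 0.00561) and with voom on the recovered reads (0.0156), and its value ran from -0.94 without replicate 1 to -2.56 without replicate 2 of that group. Cstb at -0.23 (adjusted p = 0.1) passed without replicate 2 of MLL-AF9 with MI-2-2 (0.041) or replicate 1 of MLL-AF9 with DMSO (0.05 after rounding). With quantile normalization of all libraries it passed too, at -0.34 (0.0395).

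For MLL-AF1p minus MLL-AF6 cells, 1 member was higher and 2 lower, beside 19.5% and 11.6% of all genes. Cst7 was higher by 0.78 ± 0.17 (SE; adjusted p = 0.00345), Cstb was lower at -0.72 ± 0.11 (0.000161) and Stfa2l1 at -1.11 ± 0.35 (0.0265). The Stfa2l1 difference was lost without replicate 1 of MLL-AF6 with MI-2-2, replicate 1 of MLL-AF6 with DMSO, replicate 3 of MLL-AF1p with MI-2-2 or replicate 2 of MLL-AF1p with DMSO, with adjusted p of 0.0545 to 0.0679. Without replicate 2 of MLL-AF6 with DMSO, Cst3 (adjusted p = 0.0464) and Stfa3 (0.0264) passed as well.

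Without the inhibitor, some members differed in level between the 3 cell types, as did a large share of all genes tested. In MLL-AF1p against MLL-AF9 cells under DMSO, 3 members were higher and 2 lower, beside 36.5% and 28.6% of all genes. Stfa1 was lower at -1.69 ± 0.17 (SE; adjusted p = 4.82e-07) and Cst3 at -0.97 ± 0.14 (2.27e-05), and Stfa2l1 was higher at 0.93 ± 0.25 (0.0041), Stfa3 at 1.04 ± 0.37 (0.0212) and Cst7 at 0.52 ± 0.12 (0.00172). In MLL-AF1p against MLL-AF6 cells under DMSO, 3 members were higher and 2 lower, beside 28.8% and 23.7% of all genes, namely Stfa2 at 1.62, Stfa3 at 1.5 and Cst7 at 0.88, and Stfa1 at -1.22 and Cst3 at -0.97. In MLL-AF6 against MLL-AF9 cells under DMSO, 0 were higher and 2 lower, beside 29.1% and 24.5% of all genes, namely Stfa1 at -0.47 (adjusted p = 0.0284) and Cst7 at -0.36 (0.0204). MLL-AF1p cells thus had the least Stfa1 and the most Cst7 under DMSO, and these comparisons share DMSO libraries.

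Several of these DMSO calls lay near the threshold. Stfa3 in MLL-AF1p against MLL-AF9 cells did not pass without replicate 1 or 3 of MLL-AF9 or replicate 2 of MLL-AF1p (adjusted p = 0.101, 0.0727 and 0.0787, with differences of 0.75, 0.91 and 0.89), nor in the fit on reads (0.138). Stfa2 in MLL-AF1p against MLL-AF6 cells did not pass without replicate 1 or 3 of MLL-AF6 or replicate 2 of MLL-AF1p (0.0933, 0.0615 and 0.071, with differences of 1.30, 1.53 and 1.46). Stfa1 in MLL-AF6 against MLL-AF9 cells did not pass without replicate 2 of MLL-AF9 (0.103) or of MLL-AF6 (0.167), at -0.39 and -0.24. Cst7 in the same comparison did not pass without replicate 2 or 3 of MLL-AF9 or replicate 1 of MLL-AF6 (0.0736, 0.0831 and 0.0643), at -0.31, -0.30 and -0.33. Without replicate 2 of MLL-AF9, Stfa2 in MLL-AF1p (0.00228) and Stfa2l1 in MLL-AF6 (0.00106) passed against MLL-AF9, and so did Stfa2 in MLL-AF6 without replicate 1 of MLL-AF9 (0.0049) and Stfa2l1 in MLL-AF6 without replicate 1 of MLL-AF6 (0.0238).

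The 6 groups were also ordered by mean level. Stfa1 ran from MLL-AF9 with MI-2-2 (2104 ± 337 RPKM, SD, n = 3) through MLL-AF6 (1440 ± 158) and MLL-AF1p with MI-2-2 (562 ± 56.3) to MLL-AF9 (270 ± 30.7), MLL-AF6 (199 ± 55.2) and MLL-AF1p with DMSO (83.0 ± 5.55), and only the MLL-AF9 and MLL-AF6 groups with DMSO overlapped among neighbours. For Stfa2 and Stfa3 the order was MLL-AF9, MLL-AF1p and MLL-AF6 with MI-2-2, then MLL-AF1p, MLL-AF9 and MLL-AF6 with DMSO, and neighbours overlapped except at the top and between the treatments. The levels of Cst3 overlapped in MLL-AF6 with MI-2-2 (838 ± 103), MLL-AF6 with DMSO (839 ± 200) and MLL-AF9 with DMSO (827 ± 119), all above MLL-AF1p with MI-2-2 (512 ± 11.8), MLL-AF9 with MI-2-2 (488 ± 27.0) and MLL-AF1p with DMSO (421 ± 23.1). Cst7 was highest in the 2 MLL-AF1p groups, with 107 ± 3.60 RPKM with MI-2-2 and 104 ± 14.7 RPKM with DMSO, and lowest in MLL-AF9 with MI-2-2 (30.5 ± 4.59).

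The proteases that these inhibitors bind were followed with the same test. Of 11 cysteine cathepsin and legumain genes, 10 passed the filter, Ctsk and Lgmn only through the MI-2-2 libraries. Of these 10, 9 rose and 1 fell in MLL-AF9 cells, 8 rose and 1 fell in MLL-AF6 cells, and 7 rose and 2 fell in MLL-AF1p cells, with median changes of 1.58, 1.95 and 1.06 on the log2 scale. Of all genes tested, 28.5%, 18% and 19.1% rose and 27.9%, 38.9% and 26.3% fell in cells with MLL-AF9, MLL-AF6 and MLL-AF1p. Ctss, a cathepsin of antigen-presenting and other myeloid cells, stood at 148, 123 and 154 RPKM with MI-2-2, against 1.58, 1.43 and 1.73 RPKM with DMSO, in MLL-AF9 cells, a rise of 6.09 ± 0.20 (SE; adjusted p = 2.18e-12). Ctsb, the broadly expressed cathepsin B, reached 1180, 913 and 1069 RPKM with MI-2-2 in MLL-AF6 cells, against 200, 153 and 167 RPKM with DMSO. Both were higher in every MI-2-2 library of these cell types than in any DMSO library.

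Ctsc, which activates the serine proteases of neutrophil granules, rose by 1.33 ± 0.12, 1.30 ± 0.12 and 0.60 ± 0.12 (SE) in cells with MLL-AF9, MLL-AF6 and MLL-AF1p, with adjusted p of 1.25e-07, 1.69e-07 and 0.000625. It was thus higher in MLL-AF9 and MLL-AF6 cells, where its inhibitor gene Cst7 was lower, and also in MLL-AF1p cells, where Cst7 did not pass the test. Lgmn, legumain, a lysosomal endopeptidase that cystatin C also binds, stood at 86.2, 60.4 and 88.2 RPKM with MI-2-2 in MLL-AF6 cells, against 0.333, 0.449 and 0.360 RPKM with DMSO. Without Ctsk and Lgmn, which could pass the filter only by being higher with MI-2-2, 7 rose and 1 fell in MLL-AF9 cells, 6 rose and 1 fell in MLL-AF6 cells, and 5 rose and 2 fell in MLL-AF1p cells. The median changes without these genes were 1.25, 1.19 and 0.61 on the log2 scale in cells with MLL-AF9, MLL-AF6 and MLL-AF1p. The genes that fell were Ctsf, cathepsin F, which fell in all 3 cell types (by 2.42, 1.5 and 1.19 in cells with MLL-AF9, MLL-AF6 and MLL-AF1p), and Ctsl, cathepsin L, which rose by 0.78 and 0.68 in MLL-AF9 and MLL-AF6 cells and fell by 0.40 in MLL-AF1p cells (adjusted p = 0.000963). Ctso, cathepsin O, did not pass in MLL-AF6 cells, at 0.41 (adjusted p = 0.0596), but did with the libraries centred on their medians (0.0304) or without replicate 2 of MLL-AF6 with DMSO (0.00322).

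**Figure D4:**
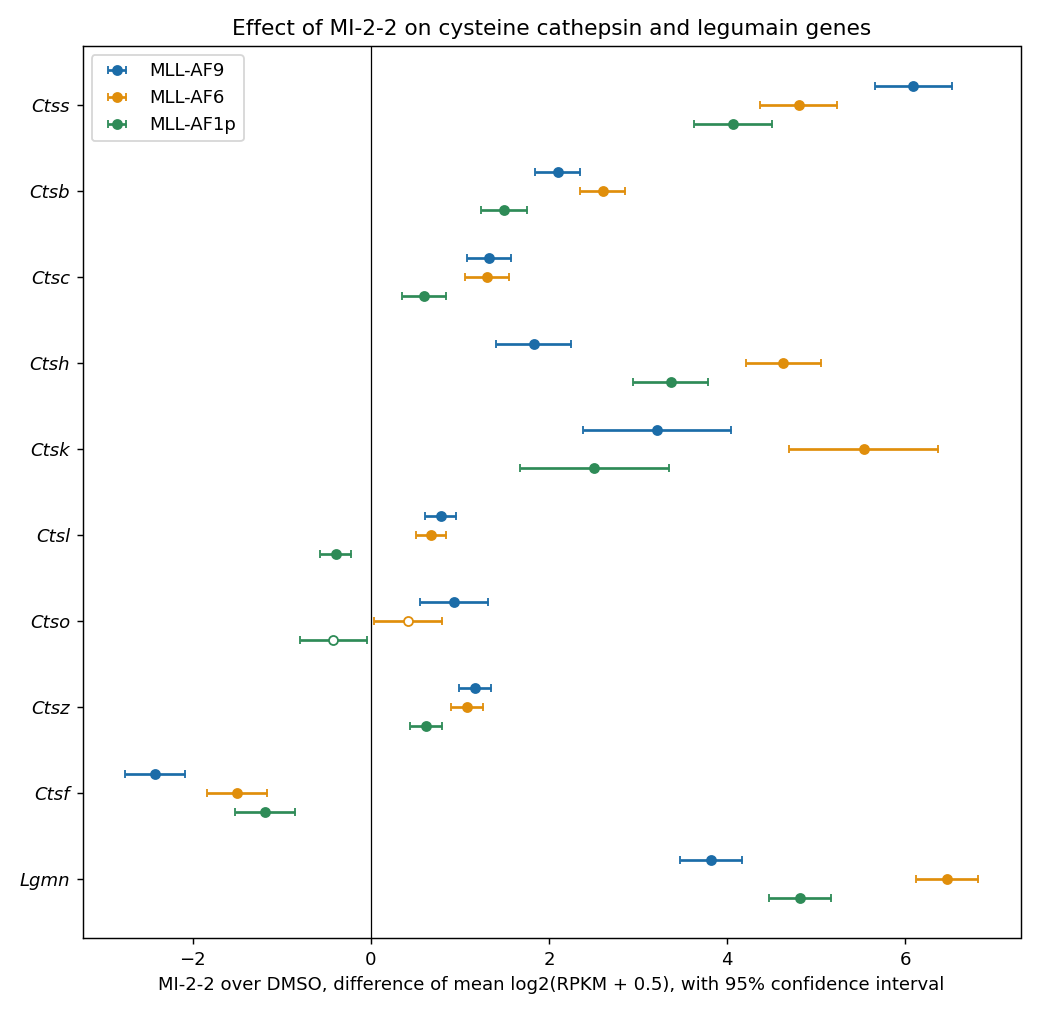
Difference of mean log2(RPKM + 0.5), MI-2-2 over DMSO, for the 10 cysteine cathepsin and legumain genes that passed the filter, with 95% confidence intervals; open points did not pass an adjusted p of 0.05. Ctsf lies left of 0 in all 3 cell types, Ctsl and Ctso lie left of 0 in MLL-AF1p cells, and the other genes lie right of 0.

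The rest of the family was hardly expressed. Of 13 further cystatin family genes, among them Cst6, the fetuins and the kininogens, 0 passed the filter, and the highest level was 0.409 RPKM, of Cst6. Genes listed for a cystatin-like fold of their products reached higher levels. Camp, which encodes the antimicrobial peptide of neutrophil granules, stood at 342, 377 and 441 RPKM with MI-2-2, against 2.76, 11.7 and 4.51 RPKM with DMSO, in MLL-AF9 cells, and Ngp, neutrophilic granule protein, at 1182, 1322 and 1448 RPKM against 57.7, 175 and 109 RPKM. Of the 3 such genes that passed the filter, 3 rose in MLL-AF9 cells and 2 rose in MLL-AF6 and MLL-AF1p cells. The shares of all genes tested that rose were 28.5%, 18% and 19.1% in cells with MLL-AF9, MLL-AF6 and MLL-AF1p. Lxn, latexin, fell by 0.36 in MLL-AF1p cells (adjusted p = 0.0239). That last call was lost without replicate 2 or 3 of MLL-AF1p with MI-2-2 or replicate 1 or 3 of MLL-AF1p with DMSO, with adjusted p of up to 0.103.

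Inhibitors of other protease classes moved in both directions, as did genes at large. Of 10 such genes 9 passed the filter, 3 of them (Serpinb8, Serpinb10 and Spint1) only through the MI-2-2 libraries. Of these 9, 3 rose and 2 fell in MLL-AF9 cells, 5 rose and 2 fell in MLL-AF6 cells, and 2 rose and 2 fell in MLL-AF1p cells, with medians of 0.10, 0.43 and -0.20. In the same order of cell types, 28.5%, 18% and 19.1% of all genes tested rose and 27.9%, 38.9% and 26.3% fell. Without those 3 genes, 1 rose and 2 fell in MLL-AF9 cells, 2 rose and 2 fell in MLL-AF6 cells, and 0 rose and 2 fell in MLL-AF1p cells, with medians of 0.001, -0.21 and -0.27. Slpi, an inhibitor of neutrophil elastase, fell in all 3 cell types, by 1.01 ± 0.14, 0.74 ± 0.14 and 0.55 ± 0.14 (SE) in cells with MLL-AF9, MLL-AF6 and MLL-AF1p. In MLL-AF6 cells the fall of Serpinb1a (-0.68, adjusted p = 0.0187) was lost without replicate 1 or 3 with MI-2-2 or replicate 2 or 3 with DMSO, and the rise of Serpinb6a (0.27, 0.0269) without replicate 1 with MI-2-2 or replicate 1 or 3 with DMSO. Serpinb2 at -0.74 (0.0674) passed there without replicate 3 with MI-2-2 (0.000744) or replicate 2 with DMSO (0.0332), and Spint2 at 0.44 (0.0653) without replicate 1 with MI-2-2 (0.0368) or replicate 2 with DMSO (0.0313) and with the libraries centred on their medians (0.0342). In MLL-AF9 cells Serpinb6a passed without replicate 1 with DMSO (0.0249).

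Several markers of mature blood cells changed with MI-2-2 as well. Of all genes tested, 28.5%, 18% and 19.1% rose and 27.9%, 38.9% and 26.3% fell in cells with MLL-AF9, MLL-AF6 and MLL-AF1p. The 8 neutrophil markers in the table summed to 22900 to 26700 RPKM with MI-2-2 against 2780 to 3840 RPKM with DMSO in MLL-AF9 cells, 15600 to 17700 against 1910 to 2490 RPKM in MLL-AF6 cells, and 25400 to 30000 against 2640 to 3130 RPKM in MLL-AF1p cells, and 8, 7 and 6 of the 8 rose, with 0 falling. Of the 8 monocyte and macrophage markers that passed the filter, 1 of them only through MI-2-2 libraries, 7, 5 and 6 rose and 1, 2 and 1 fell in cells with MLL-AF9, MLL-AF6 and MLL-AF1p, although the sum of the 9 in the table was 1610 to 1920 RPKM with MI-2-2 against 1430 to 1820 RPKM with DMSO in MLL-AF9 cells, 3100 to 3180 against 3860 to 4680 RPKM in MLL-AF6 cells and 3170 to 3570 against 3910 to 4090 RPKM in MLL-AF1p cells. The 6 dendritic cell markers, low throughout, summed to 4.32 to 5.73 RPKM with MI-2-2 against 0.442 to 1.01 RPKM with DMSO in MLL-AF9 cells, 13.5 to 14.0 against 1.35 to 2.19 RPKM in MLL-AF6 cells and 3.04 to 3.13 against 1.25 to 1.54 RPKM in MLL-AF1p cells. With MI-2-2 at least 93.0% of that sum was a single gene, Itgax, the 1 of the 6 that passed the filter, and it passed only through the MI-2-2 libraries. The neutrophil and monocyte sums are weighted toward abundant genes too. S100a8 of the neutrophil list was the highest of all genes in each MI-2-2 library of MLL-AF9 and MLL-AF1p cells. Ly6c2 of the monocyte list was the highest in replicates 1 and 3 of MLL-AF6 with DMSO. These sums therefore do not show a shift of every marker. The part of these markers in the changes of the stefins and cystatins was not tested, and in RNA of whole cultures more cells of a type and more RNA per cell cannot be told apart. Markers of lymphoid and red cells were low: the 6 T and NK cell markers summed to at most 0.157 RPKM and the 5 B cell markers to at most 2.89 RPKM in any library, and Ms4a1, Cd3e, Ncr1 and the 4 globin genes listed had no read in any library. The 1 B cell marker that passed the filter fell by 1.20 and 0.71 on the log2 scale in MLL-AF6 and MLL-AF1p cells and did not pass the test in MLL-AF9 cells. The 6 mast cell and basophil markers summed to 6.03 to 7.42 RPKM with MI-2-2 against 13.8 to 18 RPKM with DMSO in MLL-AF9 cells, 5.15 to 6.41 against 12.7 to 27.2 RPKM in MLL-AF6 cells and 14.4 to 15.8 against 14.5 to 17.0 RPKM in MLL-AF1p cells. The 1 of them that passed the filter was lower by 1.14 and 1.57 on the log2 scale in MLL-AF9 and MLL-AF6 cells and did not pass the test in MLL-AF1p cells, and Tpsb2 and Fcer1a were at 0. The 5 eosinophil markers summed to at most 2.86 RPKM, and the 5 megakaryocyte markers to at most 6.35 RPKM. The 1 megakaryocyte marker that passed the filter fell by 1.42 in MLL-AF9 cells and rose by 1.25 in MLL-AF6 cells. It did not pass the test in MLL-AF1p cells.

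Across the 18 libraries the members fell into sets by the correlation of log2(RPKM + 0.5), whose points share a library, its depth and 1 of 6 groups, and which is given as a description. Stfa2, Stfa2l1 and Stfa3 were most alike, with r of 0.962 to 0.981, Stfa1 correlated with these 3 at 0.784 to 0.864 and Cstb with the 4 Stfa genes at 0.863 to 0.946. Cst3 correlated at -0.415 to 0.129 and Cst7 at -0.746 to -0.338 with the other members. The genes outside the members most like Stfa2l1 were Gm5483 (r = 0.9966), the neutrophil collagenase gene Mmp8 (0.9811), also in the neutrophil list, and Tmem106a (0.9808). Those most like Stfa2 were BC100530 (0.9774), Gm5483 (0.9748) and Olfm4 (0.9746), a neutrophil granule gene, and for Stfa3 they were Tagap (0.9842), the myeloid kinase gene Fgr (0.9841) and the formyl peptide receptor gene Fpr2 (0.9816). These last 3 were under 1 RPKM in every DMSO library and passed the filter only through the MI-2-2 libraries.

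The remaining members had other neighbours. For Stfa1 they were Fam129b (r = 0.9873), Relb (0.9818), a subunit of NF-kappaB, and Pacs2 (0.9799). For Cstb they were Atp6v0d2 (0.9931), a subunit of the proton pump of lysosomes, Ch25h (0.9917), cholesterol 25-hydroxylase, and Plxna1 (0.9896), a plexin, and these 3 too were under 1 RPKM in every DMSO library and passed only through the MI-2-2 libraries. Atp6v0d2 stood at a mean of 43.3, 131 and 22 RPKM with MI-2-2 in cells with MLL-AF9, MLL-AF6 and MLL-AF1p, against 0.189, 0.308 and 0.319 RPKM with DMSO, so that like Cstb it was highest in MLL-AF6 cells. For Cst3 they were Dbndd2 (0.9258), Tspan4 (0.892) and Gpx3 (0.8895), and for Cst7 Ankrd27 (0.9565), Hsp90ab1 (0.953), a chaperone, and Rpn1 (0.9481), a subunit of the oligosaccharyltransferase.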

How the data were processed

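The authors deposited 1 table of RPKM for 18 libraries with the gene length per the file headers, and every value column was used. The build was mm9, and the tools listed were edgeR, HTSeq, Bowtie2 (2.0.0.7) and CASAVA (1.8.2), per the submitters' processing notes, which reach here without their roles. Per the labels' protocols, TruSeq mRNA libraries, which do not mark strand, were made where the RNA integrity number was at least 8. RPKM times length in kilobases summed to 1000000 in each library, and 100% of these values were whole multiples of 1 read within 0.05, which gave reads and depth.

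The test was limma 3.58.1 (R 4.3.3) on log2(RPKM + 0.5), which understates changes of low genes, with a mean for each of 6 groups (residual degrees of freedom 12), a prior variance that follows the mean level, two-sided p and Benjamini-Hochberg adjustment over the 11238 genes kept. It was tested on simulated data. There were 9 comparisons: the effect of MI-2-2 over DMSO per construct, its differences between constructs, and the DMSO groups against each other. Alternatives changed the pseudocount, filter, scaling, prior, libraries fitted, replicate block and test (voom on the recovered reads), and left out libraries. Named genes were the members, genes of each list other than marker lists with a mean of at least 5 RPKM in any group, and the 3 genes most correlated with each member; a few others are named to account for a count. Members and lists were chosen with earlier results of these data known. Sequences are from GENCODE M21 and RefSeq on GRCm38, a later build than that of the authors, and served for sequence and GRCm38 positions only. Proteins were not used here. Replicates of a group correlated at 0.9717 to 0.9981 across genes, and none were identical. Python 3.11.15 with matplotlib 3.10.9 drew the figures.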

Additional observations from a re-analysis of the deposited data

Results flagged for a closer look

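These 10 differences between constructs in the effect of MI-2-2 on a member are listed because each passed the test of the difference itself. On the log2 scale, MLL-AF6 minus MLL-AF9 cells gave 0.77 for Cst3, 0.49 for Cstb and 0.51 for Cst7. MLL-AF1p minus MLL-AF9 cells gave -2.28 for Stfa3, -1.90 for Stfa2l1, 1.04 for Cst3 and 1.29 for Cst7. MLL-AF1p minus MLL-AF6 cells gave -1.11 for Stfa2l1, -0.72 for Cstb and 0.78 for Cst7. The comparisons share libraries, so these are not independent of each other. Without replicate 3 of every group, 9 of the 10 lost their call. Among single libraries left out, 7 of 12 omissions lost Cst7 in MLL-AF6 minus MLL-AF9. For Stfa2l1 in MLL-AF1p minus MLL-AF6, 4 of 12 did. The MLL-AF1p libraries were the deepest, at 48.88 to 56.3 M counted reads, against 21.18 to 30.67 M in the other 4 groups, and the part of depth in these differences was not tested.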

How the results depend on the processing

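In the 3 comparisons of MI-2-2 with DMSO no called change of a member lost its call or its direction under another pseudocount (0.1), no filter, median centring, quantile normalization, a constant prior, voom on the recovered reads or the omission of any library. Of the changes that did not pass, Cst3 in MLL-AF6 cells (0.02) was -0.16 without replicate 2 of MLL-AF6 with DMSO, Cst7 in MLL-AF1p cells (0.05) was -0.08 without replicate 2 of MLL-AF1p with DMSO, and Cst3 in MLL-AF1p cells passed with the replicate block (adjusted p = 0.022) and with its construct fitted alone (0.0022). Over all comparisons of members, 1248 values kept their call, 45 no longer passed, 30 newly passed and 0 that had passed changed sign. The 4 Stfa members summed gave a difference of 0.123, 0.0789 and 0.0423 percent of counted reads in cells with MLL-AF9, MLL-AF6 and MLL-AF1p.

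The labels tie no shared batch to a replicate number, and the deviations of same-numbered libraries correlated at 0.001 to 0.557, all above 0 but above 0.1 in only 5 of 9 pairs, so the numbers were not taken as pairing the libraries. As a hint from the data, 6 of 9 treated libraries correlated best with their own number. Replicates 1 and 2 correlated at 0.098 to 0.557 with their own number and at -0.565 to -0.098 with each other. Replicate 3 correlated at 0.001 to 0.026 with its own number. Deviations within a group sum to 0, so these values are not independent. A structure shared by replicate number is thus possible, and the main fit does not model it. With the replicate block, 6914, 7048 and 5938 genes were called in cells with MLL-AF9, MLL-AF6 and MLL-AF1p, where 6339, 6402 and 5103 were called without it. The block also let Stfa2 pass in MLL-AF1p minus MLL-AF9 (adjusted p = 0.0357) and in MLL-AF1p against MLL-AF9 under DMSO (0.0352). Stfa2l1 in MLL-AF6 against MLL-AF9 under DMSO (0.0277) and, as given above, Cst3 with MI-2-2 in MLL-AF1p cells (0.022) passed as well. No other member's call changed with the block.

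Omitting replicates 1, 2 or 3 of every group was added after seeing that libraries 1 and 2 deviated in opposite directions. With it and the omission of single libraries, the number of genes called ran from 3718 to 6604 (2032 to 3399 higher and 1686 to 3205 lower) in MLL-AF9 cells. In MLL-AF6 cells the range was 3249 to 6665 (1186 to 2066 higher, 2063 to 4599 lower), and in MLL-AF1p cells it was 2086 to 5158 (930 to 2222 higher, 1156 to 2936 lower). It ran from 725 to 4609 for MLL-AF6 minus MLL-AF9, from 928 to 4407 for MLL-AF1p minus MLL-AF9 and from 437 to 4060 for MLL-AF1p minus MLL-AF6 (2230 without replicate 1 of every group). For the DMSO groups it ran from 3284 to 6519 (MLL-AF6 against MLL-AF9), from 4837 to 7375 (MLL-AF1p against MLL-AF9) and from 2422 to 6506 (MLL-AF1p against MLL-AF6). The lowest counts came without replicate 3 of every group. Omitting replicate 1 or 2 of every group also leaves 2 libraries a group, and it gave higher counts. Depth limits the low DMSO values most, such as the 15 reads of Stfa3 in 1 library of MLL-AF9.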
